A study of Mus musculus with 6 samples.

Results

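The genes examined were 10 members of the CC chemokine family, Ccl2, Ccl3, Ccl4, Ccl6, Ccl7, Ccl9, Ccl12, Ccl17, Ccl22 and Ccl24, taken by gene symbol from a table of read counts for 37043 symbols. All 10 were in the table. The rule that picks them uses gene symbols and no measured value, but the list was drawn up with earlier results of these data known. The cells were bone marrow-derived basophils (BMBAs) of C57BL/6J WT mice. Bone marrow cells were kept for 7 days with 0.3 ng/mL of a cytokine that the study's methods give as IL-3, and basophils were then enriched with beads that capture CD49b-positive cells. PBS (3 libraries) or 10 ng/mL IL-3 (3 libraries) was then added for 6 h, so that both groups had been grown in low IL-3 before. The age and sex of the mice are not given in the sources used here, and every library is a bulk sample of an enriched culture that could hold other bone marrow cells. The comparison asks how the transcripts of these chemokines differ between BMBAs given the higher dose of IL-3 and those given PBS.

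CC chemokines are small secreted proteins, named for a pair of adjacent cysteines, that attract leukocytes by binding G protein-coupled receptors. Ccl3 (MIP-1alpha), Ccl4 (MIP-1beta), Ccl6 and Ccl9 encode inflammatory chemokines with receptors on monocytes, macrophages and granulocytes, among them Ccr1 for Ccl3, Ccl6 and Ccl9. Ccl2, Ccl7 and Ccl12 encode monocyte chemoattractant proteins, ligands of Ccr2. Ccl17 and Ccl22 encode ligands of Ccr4, a receptor of type 2 helper and regulatory T cells, and Ccl24 encodes eotaxin-2, a ligand of the eosinophil receptor Ccr3. Basophils are rare granulocytes that are a source of IL-4 and of chemokines in allergic and antiparasite responses, and IL-3 is a growth and activating factor for them.

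The genes lie on chromosomes 5, 8 and 11, several of them as close neighbours (coordinates of GRCm38, GENCODE M21 annotation). Ccl2 (chr11:82035571-82037453) and Ccl7 (chr11:82045712-82047525) are 8.26 kb apart on the plus strand, and Ccl12 (chr11:82101845-82103400) follows 54.3 kb after Ccl7. Farther along chromosome 11 are Ccl9 (chr11:83572919-83578636) and Ccl6 (chr11:83587882-83593087), 9.24 kb apart on the minus strand. They are followed by Ccl3 (chr11:83647844-83649355, minus strand) and Ccl4 (chr11:83662584-83664683, plus strand), 13.2 kb apart. Ccl22 (chr8:94745590-94751699) and Ccl17 (chr8:94810453-94812036) are 58.8 kb apart on the plus strand of chromosome 8, and Ccl24 (chr5:135569937-135573049) is on the minus strand of chromosome 5. No 50-base stretch of the transcripts of 9 of these genes occurred in a transcript of another gene. For Ccl9 1.97% of such stretches did, which leaves a small share of its count uncertain.

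RefSeq promoter sequences (GRCm38.p6) were matched for 6 of the 10 genes, Ccl3, Ccl6, Ccl9, Ccl12, Ccl17 and Ccl22. The 250 bases before the annotated start are shown, 5′ to 3′ on the strand of the gene, for the 3 matched genes that rose with IL-3 and for Ccl17, which held most of the motif matches. The windows are chr11:83593088-83593337 (minus strand) for Ccl6, chr11:83578637-83578886 (minus strand) for Ccl9, chr11:83649379-83649628 (minus strand) for Ccl3 and chr8:94810203-94810452 (plus strand) for Ccl17. Capitals mark matches to the motifs named after the sequences.
Ccl6: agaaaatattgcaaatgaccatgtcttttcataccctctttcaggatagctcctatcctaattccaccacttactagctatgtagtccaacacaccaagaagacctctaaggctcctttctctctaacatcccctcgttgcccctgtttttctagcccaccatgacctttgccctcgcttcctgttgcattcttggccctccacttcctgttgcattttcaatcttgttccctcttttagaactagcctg
Ccl9: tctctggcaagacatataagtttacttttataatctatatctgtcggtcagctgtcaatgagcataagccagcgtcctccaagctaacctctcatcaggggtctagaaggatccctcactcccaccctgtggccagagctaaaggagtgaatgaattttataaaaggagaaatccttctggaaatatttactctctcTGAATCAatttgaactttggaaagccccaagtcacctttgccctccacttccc
Ccl3: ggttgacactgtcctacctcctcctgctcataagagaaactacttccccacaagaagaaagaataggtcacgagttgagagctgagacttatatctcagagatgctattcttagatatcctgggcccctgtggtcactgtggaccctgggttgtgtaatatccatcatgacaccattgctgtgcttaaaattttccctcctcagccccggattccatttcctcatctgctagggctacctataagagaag
Ccl17: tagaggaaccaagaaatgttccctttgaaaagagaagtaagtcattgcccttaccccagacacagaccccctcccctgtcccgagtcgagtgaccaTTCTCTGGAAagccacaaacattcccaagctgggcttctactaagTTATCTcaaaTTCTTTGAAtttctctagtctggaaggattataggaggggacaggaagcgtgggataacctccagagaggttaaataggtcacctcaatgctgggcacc

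Both strands of these windows were searched for 6 motifs. TTCNNNGAA, a site of STAT factors that cytokine receptors activate, was in 7.02% of 32851 promoter windows of the same length. Of the 6 matched genes Ccl17 alone held it, as TTCTTTGAA at bases 99 to 91 before the start. The form of this motif with 4 free bases in place of 3, which STAT6 binds, was in 5.85% of all windows and among the matched genes in Ccl17 alone, as TTCTCTGGAA at bases 154 to 145. The GATA site AGATAA was in 9.99% of all windows and in Ccl17, where its reverse complement lay at bases 109 to 104. TGANTCA, an AP-1 site, was in 6.75% of all windows and in Ccl9, as TGAATCA at bases 53 to 47. The NF-kB site and TTGCNNAA, a C/EBP site, were in 0.356% and 9.56% of all windows and in none of the 6. The motifs do not overlap one another in these windows, and a match is a description of letters, not of binding.

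The libraries held 10537540 to 13999287 counts each, and 3 counts correspond to 0.233 to 0.296 CPM, the count scaled to a common library total by TMM normalization factors. Levels are given in this unit as the mean ± SD over the 3 libraries of a group. A gene was called changed when its edgeR quasi-likelihood test, adjusted by Benjamini-Hochberg over the 16675 genes tested, had an adjusted p below 0.05. Of all genes tested, 18.0% were called higher in IL-3, 20.2% were called lower and 38.2% were called in either direction. The p-values measure the spread between these libraries, which the study describes as separate cultures, and in bulk RNA more cells of a type and more RNA per cell cannot be told apart.

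With IL-3 7 of the 10 genes were called higher, Ccl2, Ccl3, Ccl4, Ccl6, Ccl7, Ccl9 and Ccl24, against the 18.0% of all genes tested that were called higher. None was called lower, and none was lower at an unadjusted p below 0.05. DESeq2 and limma-voom also called 7 higher and 0 lower. Ccl17 and Ccl22 were tested and not called, and Ccl12 had too few counts to be tested. All 3 IL-3 libraries lay above all 3 PBS libraries for the 7 called genes, as they did for 23.8% of all genes tested (24.4% lay wholly below), and for Ccl12, while Ccl17 and Ccl22 overlapped. Ccl24 reached the 0.886 CPM that the filter on low counts requires in its IL-3 libraries only, and Ccl2, Ccl7 and Ccl22 reached it in 1, 2 and 1 PBS libraries and in 3, 3 and 2 IL-3 libraries.

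**Figure D1:**
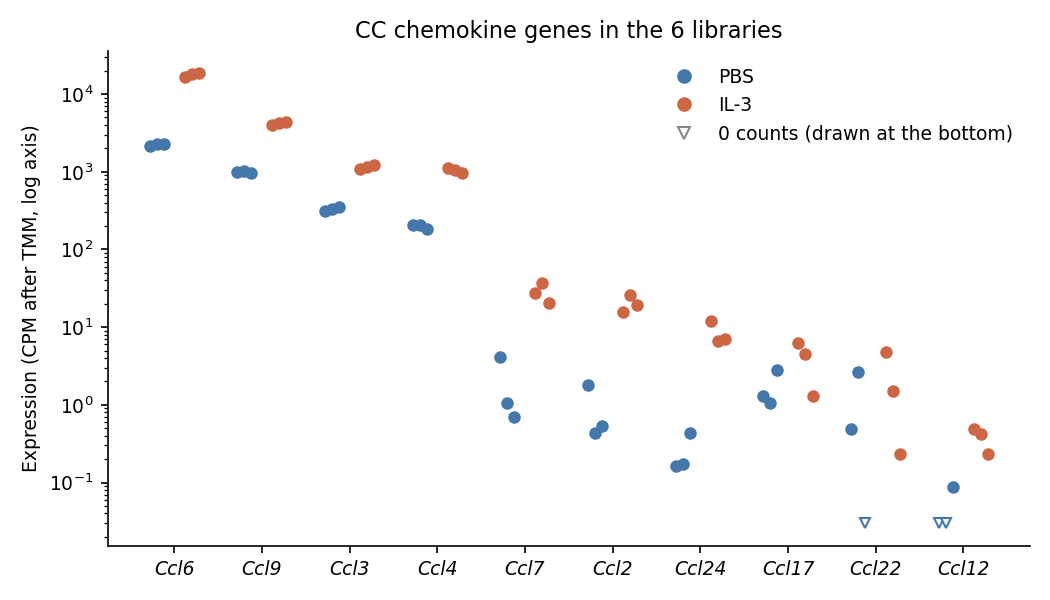
Level of each of the 10 CC chemokine genes in every library, in CPM after TMM on a log axis, with PBS in blue, IL-3 in orange and 0 counts as open triangles. The groups are apart for every gene but Ccl17 and Ccl22, and Ccl6, Ccl9, Ccl3 and Ccl4 lie far above the other 6 genes in both groups.

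Ccl6 was the most abundant of these transcripts in both groups. It had 2133, 2258 and 2284 CPM in the PBS libraries and 16476, 17906 and 18558 CPM in the IL-3 libraries. The lowest IL-3 library was thus far above the highest PBS library, and libraries of one group lay close together. The mean rose from 2225 ± 80.8 to 17646 ± 1065 CPM, a 7.93-fold change (95% interval 7.41 to 8.49) with an edgeR adjusted p of 3.74e-16. Its rise of 2.99 on the log2 scale (SE 0.0461) was the 64th largest rise of all genes tested. Ccl6 took 0.222% to 0.244% of all counts of a PBS library and 1.58% to 1.71% of those of an IL-3 library.

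Ccl9, the neighbour of Ccl6, had 990, 1038 and 968 CPM in the PBS libraries and 3967, 4255 and 4374 CPM in the IL-3 libraries. The groups did not overlap. Its log2 fold change was 2.07 (SE 0.0466, 95% interval 1.97 to 2.17), which is 4.21-fold, with an edgeR adjusted p of 1.03e-14. Ccl9 was the second most abundant of the 10 genes by CPM in each library, and its rise was smaller than that of Ccl6, whose 95% interval of 2.89 to 3.09 lay above that of Ccl9.

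Ccl3 and Ccl4, which encode the macrophage inflammatory proteins alpha and beta, rose together. Ccl3 had 313, 328 and 350 CPM with PBS and 1084, 1168 and 1210 CPM with IL-3. Ccl4 had 205, 209 and 184 CPM with PBS and 1134, 1061 and 955 CPM with IL-3. No PBS library of either gene reached the level of any IL-3 library. Ccl3 changed by 1.81 on the log2 scale (SE 0.0562), or 3.49-fold, with an edgeR adjusted p of 5.38e-13. Ccl4 changed by 2.40 (SE 0.0675), or 5.27-fold (edgeR adjusted p = 1.47e-13). The 95% interval of Ccl4, 2.25 to 2.54, lay above that of Ccl3, 1.69 to 1.92.

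These 4 genes made up nearly the whole of the chemokine transcripts. The 10 genes summed to 3759 ± 98.9 CPM with PBS and 24110 ± 1248 CPM with IL-3, 6.42-fold more, or 0.380% to 0.405% of all counts against 2.18% to 2.32%. Ccl6 carried 75.8% of the difference in summed CPM, Ccl9 15.7%, Ccl4 4.18% and Ccl3 4.05%. The other 6 genes carried at most 0.130% each, the value of Ccl7.

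Levels of different genes were compared per kilobase of the longest coding transcript of each gene. The cDNA was amplified, and how evenly reads cover a transcript is unknown, so these comparisons between genes are approximate. On this scale Ccl6 stood at 1545 ± 56.1 CPM per kb with PBS and 12250 ± 740 with IL-3. It ranked 34th to 36th among 35604 genes in the PBS libraries and was the 3rd most abundant in each IL-3 library. Ccl3, Ccl4 and Ccl9 stood at 431, 302 and 332 CPM per kb with PBS and at 1506, 1591 and 1397 with IL-3. Each of these ranked between 136th and 212th in the PBS libraries and between 30th and 45th in the IL-3 libraries. Their order with PBS was Ccl3, Ccl9, Ccl4, with no overlap between libraries, and with IL-3 the libraries of the 3 genes overlapped.

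**Figure D2:**
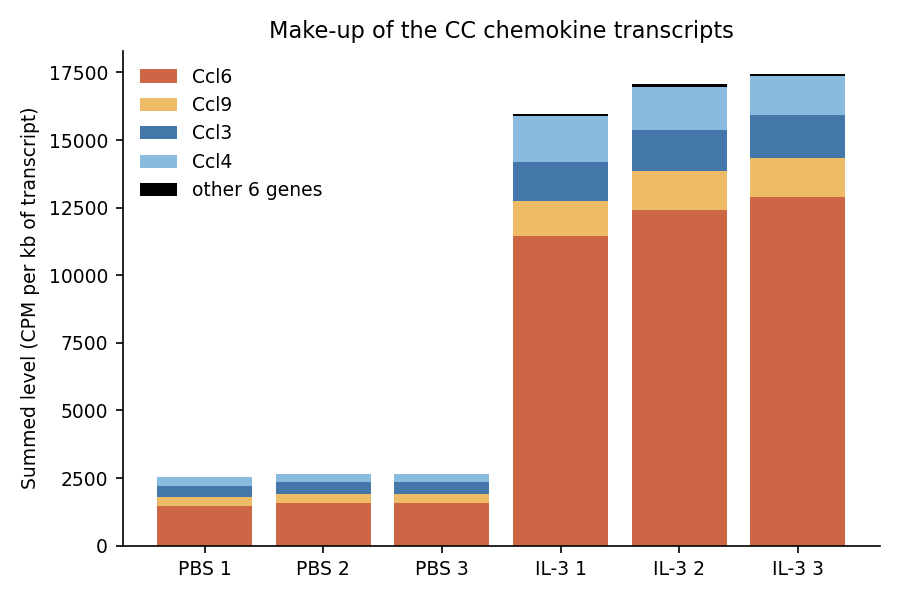
Summed level of the 10 CC chemokine genes in each library, in CPM per kb of transcript, with the part of each gene in colour. Ccl6 made up 59.0% ± 0.754 of the sum in the PBS libraries and 72.8% ± 1.16 in the IL-3 libraries.

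The make-up of the chemokine transcripts changed along with their sum. Ccl6 rose from 59.0% ± 0.754 to 72.8% ± 1.16 of the summed CPM per kb. The share of Ccl3 was 16.5% ± 0.666 with PBS and 8.95% ± 0.107 with IL-3, that of Ccl9 12.7% ± 0.472 and 8.30% ± 0.0448, and that of Ccl4 11.5% ± 0.903 and 9.49% ± 1.23. The shares of Ccl3 and Ccl9 did not overlap between the groups, while those of Ccl4 did, at 10.5% to 12.2% with PBS and 8.30% to 10.8% with IL-3. Shares of one sum move against each other, and the lower shares of Ccl3 and Ccl9 went with higher levels of these genes.

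Ratios within a library do not depend on how the libraries are scaled. Ccl6 to Ccl9, in CPM per kb, was 4.50, 4.54 and 4.92 in the PBS libraries and 8.67, 8.79 and 8.86 in the IL-3 libraries. Ccl4 to Ccl3 was 0.759, 0.740 and 0.610 with PBS and 1.21, 1.05 and 0.916 with IL-3. Neither ratio overlapped between the groups. Ccl7 to Ccl2 averaged 2.03 ± 0.591 with PBS and 1.44 ± 0.363 with IL-3 and overlapped, as did Ccl22 to Ccl17. The exact 2-sided permutation p was 0.10 for each of the first 2 ratios, the smallest that 3 libraries against 3 allow, 0.30 for Ccl7 to Ccl2 and 0.80 for Ccl22 to Ccl17, or 0.20, 0.20, 0.40 and 0.80 adjusted over the 4 ratios.

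**Figure D3:**
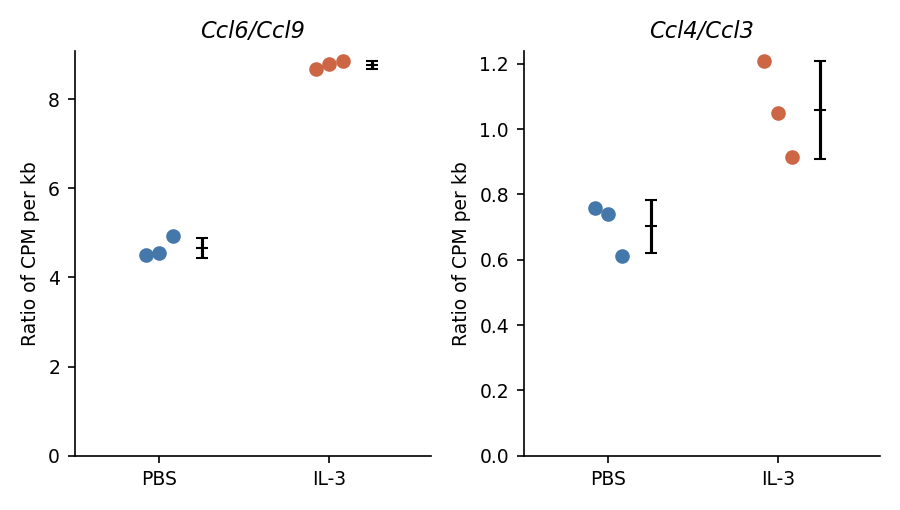
Ratio of CPM per kb within each library for Ccl6 to Ccl9 and for Ccl4 to Ccl3, with points for libraries and bars for the mean ± SD of 3. Ccl6 to Ccl9 averaged 4.66 ± 0.234 with PBS and 8.77 ± 0.0942 with IL-3, and Ccl4 to Ccl3 averaged 0.703 ± 0.0811 and 1.06 ± 0.15.

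The monocyte chemoattractant genes Ccl2 and Ccl7 were low with PBS, and their fitted fold changes were larger than those of the abundant 4. Ccl2 had 22, 5 and 6 counts in the PBS libraries and 157, 316 and 250 in the IL-3 libraries. Ccl7 had 50, 12 and 8 counts and 280, 446 and 267 counts. PBS replicate 1 was the highest PBS library for both genes, and it was still below every IL-3 library. Ccl2 went from 0.922 ± 0.761 to 20.4 ± 5.48 CPM, or by 4.43 on the log2 scale (SE 0.321, edgeR adjusted p = 1.78e-08), the 11th largest rise of all genes tested. Ccl7 went from 1.95 ± 1.86 to 28.5 ± 8.25 CPM, or by 3.83 (SE 0.353, edgeR adjusted p = 3.28e-07). Without PBS replicate 1 the log2 fold change was 5.37 for Ccl2 and 5.0 for Ccl7. The same library was the highest of all 6 for Ccl8, another monocyte chemoattractant gene of this stretch that is not among the 10, with 437 counts against 179 and 172 in the other PBS libraries.

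Ccl12, the third monocyte chemoattractant gene, was barely detected. It had 0, 0 and 1 counts in the PBS libraries and 5, 5 and 3 counts in the IL-3 libraries. The ratio of the pooled counts, 13 against 1, was 13.0 with a 95% counting interval of 1.95 to 552, which covers counting error only. Ccl8 lay further along the same stretch at 22.2 ± 11.7 CPM with PBS and 13.6 ± 9.66 with IL-3, and was not called (log2 fold change −0.69, edgeR adjusted p = 0.164).

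Ccl24, the eotaxin-2 gene, was almost absent with PBS and was called higher with IL-3. It had 2, 2 and 5 counts in the PBS libraries and 121, 79 and 90 counts in the IL-3 libraries. It was at or near the floor in each PBS library and clearly counted in each IL-3 library. The mean was 0.260 ± 0.157 CPM with PBS and 8.50 ± 2.99 CPM with IL-3, with a log2 fold change of 4.98 (SE 0.396) and an edgeR adjusted p of 5.65e-08. This was the largest fitted value of the 10 with all libraries, but its 95% interval, 4.13 to 5.82, overlapped that of Ccl2, 3.75 to 5.11. Without PBS replicate 1 the value of Ccl24 was 4.73, below those of Ccl2 and Ccl7 given above. The ratio of the pooled counts, 290 against 9, was 32.2 with a 95% counting interval of 16.7 to 71.1. Even with IL-3 its level per kb, 6.57 CPM per kb, was far below the 12250 of Ccl6. With a prior count of 2, the genes whose centred log2 CPM came closest to that of Ccl24 over the 6 libraries were Ccl1, Serpina3g and Irf4, with root mean square differences of 0.299, 0.326 and 0.334. This likeness includes the rise between the groups, and log2 CPM of low genes such as Ccl24 and Ccl1 depends on the prior count.

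The Ccr4 ligand genes Ccl17 and Ccl22 were low, and their groups overlapped. Ccl17 had 16, 12 and 32 counts in the PBS libraries and 63, 55 and 17 counts in the IL-3 libraries. IL-3 replicate 3 was below PBS replicate 3. Its log2 fold change was 1.20 (95% interval 0.22 to 2.18) with an edgeR adjusted p of 0.0516. The call turned on single libraries, with an edgeR adjusted p of 0.00160 without IL-3 replicate 3 and 0.0194 without PBS replicate 3. It was 0.262 and 0.140 without IL-3 replicates 1 and 2, and 0.153 and 0.173 without PBS replicates 1 and 2.

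Ccl22 had 6, 30 and 0 counts in the PBS libraries and 49, 18 and 3 counts in the IL-3 libraries. Its counts varied more within each group than between them. The log2 fold change of Ccl22 was 1.01 (95% interval −0.79 to 2.80) with an edgeR adjusted p of 0.386, an interval that spans both a fall and a severalfold rise. It was −0.28 without IL-3 replicate 1 and 2.99 (edgeR adjusted p = 0.0453) without PBS replicate 2.

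**Figure D4:**
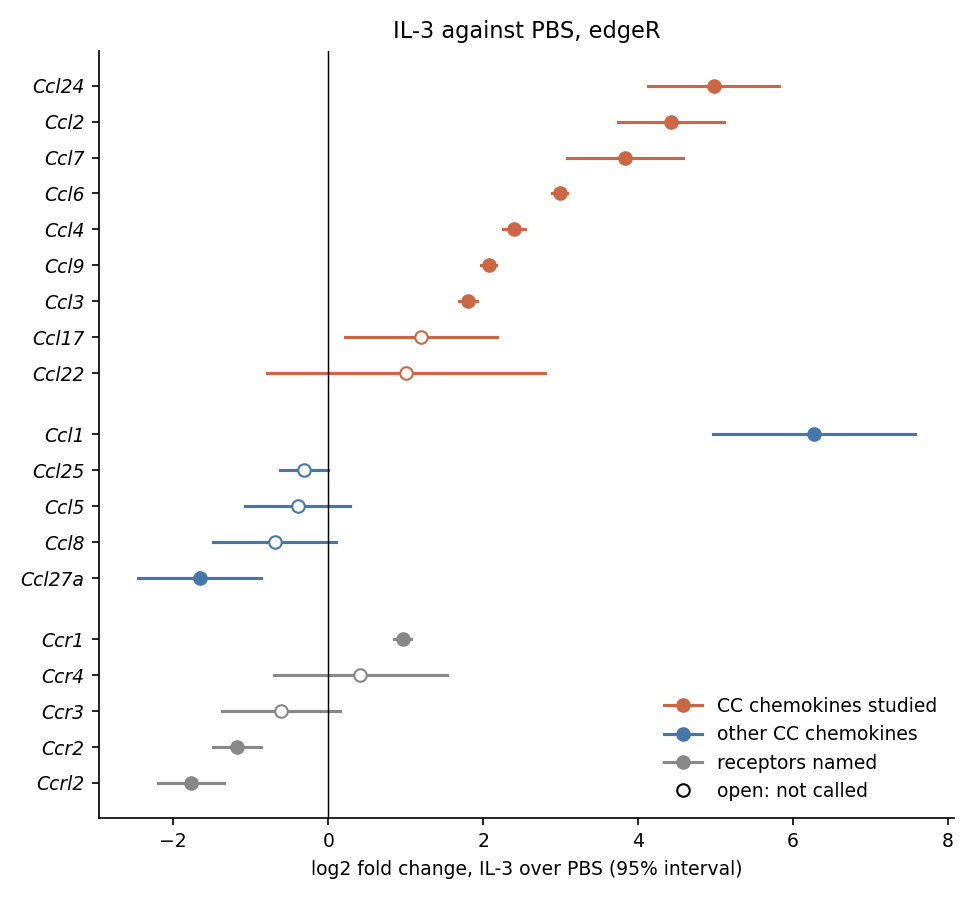
Log2 fold change, IL-3 over PBS, with its 95% interval, for the 9 tested genes of the 10 in orange, other CC chemokines in blue and the receptors whose values are given in grey, with open circles for genes not called. The 7 called genes run from 1.81 for Ccl3 to 4.98 for Ccl24, and these receptors run from −1.77 for Ccrl2 to 0.96 for Ccr1.

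Of 12 other CC chemokine genes 9 were in the table and 5 were tested. Among these 1 was called higher and 1 lower, beside 18.0% and 20.2% of all genes tested. The median log2 fold change was −0.40, against 2.40 over the 9 tested genes of the 10 and −0.0033 over all genes tested. Ccl1, a ligand of Ccr8 that lies past Ccl8 on chromosome 11, had 0, 0 and 1 counts with PBS and 35, 40 and 30 counts with IL-3. The ratio of its pooled counts was 105 (95% counting interval 18.4 to 4180), and its edgeR adjusted p was 6.70e-07. Like Ccl24, Ccl1 passed the filter on low counts through its IL-3 libraries only. Its fitted log2 fold change ranked first of all genes tested but rested on 1 PBS count, being 6.27 with all libraries and 8.15 without PBS replicate 3. Ccl27a was called lower, with a log2 fold change of −1.66 (edgeR adjusted p = 0.00230). Ccl5, the next gene to Ccl9 on the other side, was 5.47 ± 1.24 CPM with PBS and 4.15 ± 2.48 with IL-3 and was not called (log2 fold change −0.40, edgeR adjusted p = 0.365).

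Of 10 tested chemokines of the CXC, C and CX3C classes 2 were called higher and 6 lower, beside 18.0% and 20.2% of all genes tested, and their median log2 fold change was −0.97. In place of these 8 calls DESeq2 made 4 and a test against 1.5-fold made 3. Cxcl2 and Cxcl3, which encode neutrophil attractants, were the genes called higher, at 1.20 and 1.09 (edgeR adjusted p = 0.0198 and 0.0276), with overlapping groups. Both calls were lost with DESeq2 (adjusted p = 0.194 and 0.204) and with some libraries left out. For Cxcl2 these were PBS replicate 2, PBS replicate 3 and IL-3 replicate 2 (edgeR adjusted p of 0.0886 to 0.160), and without PBS replicate 1 its log2 fold change was 2.02. For Cxcl3 they were PBS replicates 1 and 3 and IL-3 replicates 1 and 2 (edgeR adjusted p of 0.0671 to 0.155). Cxcl16, a membrane-bound ligand made by myeloid cells, fell from 128 ± 10.1 to 54.2 ± 3.32 CPM (log2 fold change −1.24, edgeR adjusted p = 1.21e-09). Pf4, platelet factor, fell from 551 ± 167 to 281 ± 101.4 CPM (log2 fold change −0.97, edgeR adjusted p = 0.00114), and Cxcl10 and Cxcl5 were called lower at −3.24 and −1.64 (edgeR adjusted p = 0.000605 and 0.00480). Ppbp, another platelet chemokine, had a log2 fold change of −1.37 (edgeR adjusted p = 0.0212) with overlapping groups, at 312 ± 110 CPM with PBS and 120 ± 118 with IL-3. Its call was lost without PBS replicate 2, IL-3 replicate 1 or IL-3 replicate 2, with an edgeR adjusted p of 0.0602 to 0.107. It was also lost with DESeq2 (adjusted p = 0.211), against 1.5-fold (edgeR adjusted p = 0.150) and at the stricter threshold of 0.01. Without IL-3 replicate 3, the IL-3 library with the most Ppbp, its log2 fold change was −2.59, and that of Cxcl5 was −0.96 without PBS replicate 2.

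The receptors through which these chemokines act were also measured. Of 15 listed 8 were tested, and 2 were called higher and 2 lower, beside 18.0% and 20.2% of all genes tested. The median log2 fold change was −0.37. Ccr1, a receptor of Ccl3, Ccl6 and Ccl9, rose from 155 ± 3.47 to 302 ± 6.09 CPM (log2 fold change 0.96, edgeR adjusted p = 4.63e-10). Ccr2, the receptor of Ccl2, Ccl7 and Ccl12, fell from 47.2 ± 3.79 to 20.6 ± 6.12 CPM (log2 fold change −1.18, edgeR adjusted p = 8.54e-06). Ccrl2, an atypical receptor, fell from 13.0 ± 3.14 to 3.79 ± 0.546 CPM (log2 fold change −1.77, edgeR adjusted p = 2.96e-06).

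Ccr3, the receptor of Ccl24, and Ccr4, the receptor of Ccl17 and Ccl22, were low and not called, with log2 fold changes of −0.61 and 0.42 (edgeR adjusted p = 0.203 and 0.582).

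Ccl17, Ccl22 and Ccl24 are textbook genes of the response of macrophages to IL-4, a cytokine that basophils secrete. Of 16 other genes of that response 12 were tested, with 6 called higher and 2 lower, beside 18.0% and 20.2% of all genes tested. Their median log2 fold change was 0.57. Cish and Socs1 rose by 4.01 and 4.12 on the log2 scale (edgeR adjusted p = 3.74e-16 and 3.83e-16). Both encode feedback inhibitors of JAK-STAT signalling that many cytokines, IL-3 included, induce. Il4ra, the IL-4 receptor chain, rose by 1.62 (edgeR adjusted p = 6.27e-12). Arg1 rose from 42.2 ± 9.87 to 113 ± 16.5 CPM (log2 fold change 1.42, edgeR adjusted p = 3.71e-07). Alox15 and Chil3 were called lower at −1.25 and −0.27 (edgeR adjusted p = 1.00e-08 and 0.000561), Mrc1 and Tgm2 at −0.16 and 0.12 were not called, and Cd209a and Cd209e had no count in any library.

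Marker genes of basophils and of other cells that such cultures can hold were summed in each library. Their calls stand beside the 18.0% of all genes tested that were called higher and the 20.2% called lower. Basophil markers summed to 11480 to 12810 CPM with PBS and to 18130 to 18370 CPM with IL-3, with 8 of 10 called higher, among them Mcpt8 and Hdc, and Fcer1a called lower. Monocyte and macrophage markers summed to 12110 to 13080 CPM with PBS and to 6328 to 6969 CPM with IL-3, with 10 of 13 called lower and Adgre1 and Ly6c2 called higher. Lyz2, the lysozyme gene of myeloid cells, made up most of this sum, with 10456 ± 432 CPM with PBS and 5348 ± 316 with IL-3. No marker of this list was at 0. The marker sum was lower with IL-3 while Ccl2, Ccl3, Ccl4, Ccl6, Ccl7 and Ccl9, which macrophages can also make, were higher, and the part of such cells in these rises was not tested.

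Among other cells, mast cell markers summed to 364 to 398 CPM with PBS and 711 to 799 with IL-3, with 4 of 6 tested called higher. Neutrophil markers summed to 122 to 158 and 192 to 257 CPM, with 2 of 6 higher and 1 lower. Eosinophil markers summed to 154 to 170 and 94.5 to 136 CPM, with 1 of 4 higher, Prg2, and 3 lower. Dendritic cell markers summed to 1367 to 1498 and 863 to 960 CPM, with 3 of 9 lower and Cd209a at 0, and those of T, B and NK cells summed to 5.58 to 9.38 CPM in every library, with none of 5 called and Gzma at 0. These calls, too, stand beside 18.0% of all genes tested called higher and 20.2% called lower. The part of mast cells or neutrophils in the chemokine rises was not tested.

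**Figure D5:**
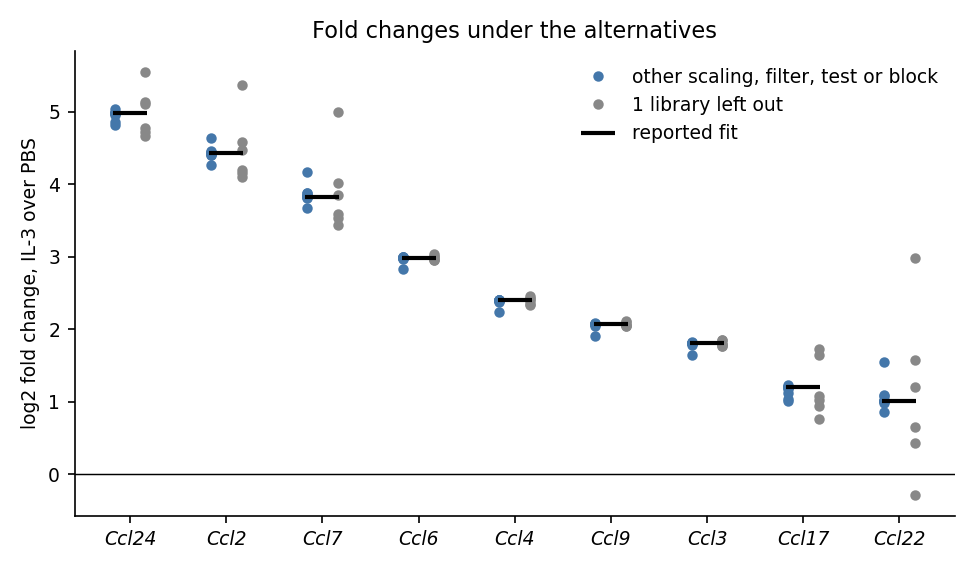
Log2 fold change of the 9 tested genes under each alternative, with other scalings, filters, tests and the replicate block in blue, fits without 1 library in grey and the reported fit as a black bar. Ccl6 stayed between 2.82 and 3.03 and Ccl9 between 1.91 and 2.11, while Ccl22 ran from −0.28 to 2.99.

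The 7 calls held under each of the 16 alternatives run. The ranges of the log2 fold change were narrow for the abundant genes, 1.64 to 1.85 for Ccl3, 2.24 to 2.46 for Ccl4, 2.82 to 3.03 for Ccl6 and 1.91 to 2.11 for Ccl9. They were wider for the low genes, 4.10 to 5.37 for Ccl2, 3.44 to 5.0 for Ccl7 and 4.66 to 5.55 for Ccl24.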

How the data were processed

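Bulk RNA-seq was done by the study on 6 libraries of BMBAs, 3 per group. The authors deposited whole-number read counts per gene symbol, not normalized. Per the study's methods, mRNA was amplified as cDNA, reads were trimmed with cutadapt (version 3.4 in the submitters' processing notes) and mapped with Bowtie2 to reference RNA. The methods name GRCm38 and the submitters' notes GRCm39 as the build. The sources used here do not state whether strand was used in counting, which leaves overlapping and near-identical genes uncertain, and ribosomal CT010467.1 took 13.4% to 16.5% of counts. Coordinates came from GENCODE M21 (GRCm38), which held 96.22% of the symbols, and promoters from RefSeq.

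Counts were filtered with filterByExpr, scaled by TMM and tested with the edgeR (4.0.16) quasi-likelihood test in R 4.3.3 on all 6 libraries without covariates, and the script was tested on simulated data. DESeq2 1.42.0 and limma 3.58.1 were alternatives, along with other scalings, filters, thresholds, a replicate block and leaving out each library. The labels give no batch. No 2 libraries of a group agreed within counting noise. Genes named were the 10 chemokines, up to 4 members of each other chemokine, receptor and IL-4 list with the smallest adjusted p, those above 50 CPM, and the 3 genes most like Ccl24, the largest rise of the 10 in the fit of all libraries, over the libraries. Ccl5, Ccl8, Cxcl2, Cxcl3, Ccr3, Ccr4 and the markers named were added as neighbours, relatives, receptors or examples after their values were seen. The 10 genes and all lists were chosen with earlier results of these data known. Some genes counted in the lists are not reported here by name. Intervals from counts cover counting error only.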

Additional observations from a re-analysis of the deposited data

How the results depend on the processing

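The calls of Ccl2, Ccl3, Ccl4, Ccl6, Ccl7, Ccl9 and Ccl24 held under all alternatives. With no filter on low counts 10 of the genes were called higher, with Ccl17 at 1.21 (edgeR adjusted p = 0.000197), Ccl22 at 1.02 (0.0254) and Ccl12 at 3.31 (0.0484). For Ccl17 and Ccl22 these calls came from a smaller fitted SE, not a larger change. The SE of Ccl22 was 0.362 without the filter and 0.843 in the reported fit, and that of Ccl17 0.285 and 0.461. Their library values overlapped between the groups as before. With a library left out 7 to 8 were called. Ccl22 ranged from −0.28 to 2.99 with a library left out and Tgm2 from −0.024 to 0.27. Tgm2 was −0.041 with library totals, and it was called in 1 of the 16 alternatives (edgeR adjusted p = 0.0136). Mrc1 was called lower with library totals (edgeR adjusted p = 0.00583) and without IL-3 replicate 1 (0.0399). The cause of these shifts was not tested. Scaling by library totals moved the median log2 fold change of all genes to −0.17 and gave 1698 genes higher and 5030 lower in place of 3003 and 3372. Testing against 1.5-fold called 709 higher and 883 lower. Of the CXC, C and CX3C chemokines 8 were called, 4 by DESeq2, 3 against a fold of 1.5, 5 at an adjusted p below 0.01 and 5 to 8 with a library left out, with 5 without IL-3 replicate 2. The fit with the replicate number as a block called 7 chemokines, 2842 genes higher and 3247 lower and changed no call of the 10 genes. Libraries that share a number did not deviate together (correlations −0.0087, −0.016 and −0.022), nor did those with different numbers (−0.029 to 0.046). Such correlations cannot tell whether cultures of the same number were paired. Counts of Ccl12, and of Ccl24 with PBS, lay near the floor of 3 counts, which limits their fold changes.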
